A study of Mus musculus with 6 samples.

Results

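The SoxC transcription factor genes Sox4, Sox11 and Sox12 and the co-repressor gene Runx1t1 were examined on arrays of whole embryonic mouse pancreas. All probe sets annotated to any of these 4 genes were taken, which gave 23 of the 45101 probe sets on the array: 8 for Sox4, 6 for Sox11, 3 for Sox12 and 6 for Runx1t1. The genes were chosen with the contrast between the 2 genotypes already known, so that the differences between genotypes in these 23 probe sets are given as a description, with a standard error (SE) and without a test. RNA came from 3 Jarid2 Δpanc and 3 Jarid2 WT pancreases at e15.5, all on a C57BL/6 strain background. Jarid2 Δpanc embryos carry the Pdx1-Cre transgene and 2 floxed Jarid2 alleles, and Jarid2 WT embryos are control littermates labelled wild-type. The Pdx1 promoter directs Cre to the pancreatic epithelium, where recombination was mosaic, and mesenchyme, vessels, nerves and blood cells of the dissected organ keep an intact Jarid2. Each sample was labelled as a single embryo, and the labels name no litter. A description label that names islets in glucose goes against the title, tissue and age labels of the same samples and was not followed.

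Sox proteins bind DNA through a high mobility group box, and Sox4, Sox11 and Sox12 form the SoxC group, which shares a closely related box and a C-terminal activation domain. In neural and mesenchymal progenitors SoxC factors overlap in function and act in survival and differentiation. In the mouse pancreas Sox4 is known as the SoxC factor of the developing epithelium, where it works upstream of the endocrine progenitor factor Neurog3 and again in later endocrine differentiation. Runx1t1, also called Eto or Mtg8, binds no DNA by itself. It bridges transcription factors such as E proteins to co-repressor complexes and their histone deacetylases, and is best known as the partner of RUNX1 in a leukaemia fusion. Jarid2 is a cofactor of Polycomb repressive complex 2, which in embryonic stem cells is found at CpG-rich promoters of developmental regulators.

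The RefSeq promoter windows of the SoxC genes, from 250 bases before to 50 bases after the transcription start on build GRCm38.p6, are shown because the 3 related genes differ in CpG content and share a CCAAT motif. For Runx1t1 no window was used here. CCAAT, or ATTGG on the other strand, is in capitals, and each window is written 5′ to 3′ along the gene, which lies on the minus strand in all 3 cases. The windows are chr13:28953650-28953949 for Sox4, chr12:27342669-27342968 for Sox11 and chr2:152397997-152398296 for Sox12.
Sox4: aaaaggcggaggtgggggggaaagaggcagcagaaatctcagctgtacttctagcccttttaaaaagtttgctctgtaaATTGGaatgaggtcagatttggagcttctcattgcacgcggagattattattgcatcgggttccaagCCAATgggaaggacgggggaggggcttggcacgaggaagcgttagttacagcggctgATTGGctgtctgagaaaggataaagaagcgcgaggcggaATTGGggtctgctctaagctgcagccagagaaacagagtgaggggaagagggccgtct
Sox11: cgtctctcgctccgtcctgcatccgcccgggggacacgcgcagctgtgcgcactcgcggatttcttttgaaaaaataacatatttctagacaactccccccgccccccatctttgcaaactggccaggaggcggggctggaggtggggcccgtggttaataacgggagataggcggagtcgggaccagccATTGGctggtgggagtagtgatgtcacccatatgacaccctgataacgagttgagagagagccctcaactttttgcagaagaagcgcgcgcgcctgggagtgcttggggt
Sox12: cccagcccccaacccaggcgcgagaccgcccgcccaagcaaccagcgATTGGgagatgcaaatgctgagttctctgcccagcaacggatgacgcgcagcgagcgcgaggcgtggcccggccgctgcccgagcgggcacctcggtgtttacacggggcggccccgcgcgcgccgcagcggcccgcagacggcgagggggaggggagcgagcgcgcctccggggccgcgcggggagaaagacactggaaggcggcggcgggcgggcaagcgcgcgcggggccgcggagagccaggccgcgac

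The Sox4 window holds 12 CG dinucleotides, the Sox11 window 21 and the Sox12 window 47, against a median of 7 over 32851 mouse promoter windows of the same length. Windows with fewer CG made up 60.4%, 75.2% and 98.6% of all windows for Sox4, Sox11 and Sox12. The CCAAT motif, known as the binding sequence of NF-Y, occurs 4 times in the Sox4 window and once each in the others, and 37.41% of all windows hold it on either strand. Its first base lies 171, 104, 47 and 8 bases before the start of Sox4, 60 bases before that of Sox11 and 203 before that of Sox12. In the Sox12 window the octamer ATGCAAAT, a motif of POU factors found in 1.74% of windows, starts 195 bases before the start. GGGCGG, the GC box, was found 4 times for Sox12, 2 times for Sox11 and not for Sox4, with 35.66% of windows holding it. The TATA box TATAAA was searched on both strands as well and is held by 13.62% of all windows. A motif of Sox proteins, ACAAAG, is in 18.71% of windows, and a motif of Runx proteins, TGTGGT, in 16.76%. None of these 3 is among the letters of the SoxC windows. These matches are letters only, and no binding was measured.

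Values are MAS5 signals, which are linear intensities scaled to the same trimmed mean of 150 on every array, and signals of different probe sets are not compared with each other. Before log2 was taken, values under 16 were set to 16. Jarid2 itself had signals of 308, 320 and 306 in Jarid2 Δpanc and 298, 274 and 324 in Jarid2 WT pancreases on probe set 1422697_s_at, and its 3 probe sets had log2 fold changes of 0.01 to 0.13. Where its probes lie relative to the deleted exon was not tested, so that this checks nothing about the deletion. The 3 Jarid2 Δpanc samples had Xist signals of 4197 to 4905, and Jarid2 WT replicates 1, 2 and 3 had 24, 12 and 4390. The Y-linked Eif2s3y had at most 13 in the Jarid2 Δpanc samples and 560, 506 and 9 in Jarid2 WT replicates 1, 2 and 3, so that genotype and sex-linked transcripts can be told apart only through replicate 3. Muscle genes stood out in Jarid2 WT replicate 3, where 8 skeletal muscle markers summed to 12849, against 283 to 319 in the Jarid2 Δpanc samples and 254 and 259 in the other Jarid2 WT samples. The 10 acinar markers, all with a mean signal of at least 64, and the 13 endocrine markers, 12 of them at that level, were detected, as the tissue label requires. Over the whole array, 2 of 45101 probe sets (0.00443%) passed an adjusted p of 0.05 from limma, 1 lower and 1 higher, and neither was annotated to Sox4, Sox11, Sox12 or Runx1t1.

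The 2 highest log2 fold changes among the 23 probe sets were those of Sox11, and all of its 6 probe sets had positive values, between 0.10 and 0.67. Its brightest probe set, 1436790_a_at, had signals of 278, 313 and 279 in Jarid2 Δpanc and 135, 225 and 200 in Jarid2 WT pancreases. All Jarid2 Δpanc samples lay above all Jarid2 WT samples, and Jarid2 WT replicate 1 was the lowest of the 6. The log2 fold change was 0.67 (SE 0.22). Probe set 1453125_at had 216, 278 and 260 in Jarid2 Δpanc and 158, 125 and 200 in Jarid2 WT pancreases, with a log2 fold change of 0.66 (SE 0.21). Here too the groups did not overlap, although the lowest control was replicate 2. Probe set 1453002_at had 142, 125 and 116 in Jarid2 Δpanc and 95, 104 and 106 in Jarid2 WT, with a log2 fold change of 0.33 (SE 0.09), and the closest samples of the groups stood at 116 and 106.

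The other 3 probe sets of Sox11 overlapped between genotypes. Probe set 1429051_s_at had 188, 183 and 170 in Jarid2 Δpanc and 95, 139 and 186 in Jarid2 WT pancreases, so that Jarid2 WT replicate 3 reached the Jarid2 Δpanc range (log2 fold change 0.42, SE 0.27). Probe set 1429372_at had 161, 140 and 119 in Jarid2 Δpanc and 99, 141 and 156 in Jarid2 WT, with 0.10 (SE 0.22). The dimmest, 1431225_at, ranged from 32 to 78 in Jarid2 Δpanc and from 24 to 58 in Jarid2 WT, with 0.20 (SE 0.52). Probe sets 1453125_at and 1429372_at were designed from the same sequence record, as were 1429051_s_at and 1453002_at, so that the 6 stand for 4 records. Of the first pair 1 probe set separated the groups and the other did not, and the same was true of the second pair. In all, 3 of 6 had every Jarid2 Δpanc sample above every Jarid2 WT sample, against 5.58% of all 45101 probe sets and 8.66% of the 17341 with a mean signal of at least 64. The rule that chose the genes used this contrast, so nothing is read from that count.

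**Figure D1:**
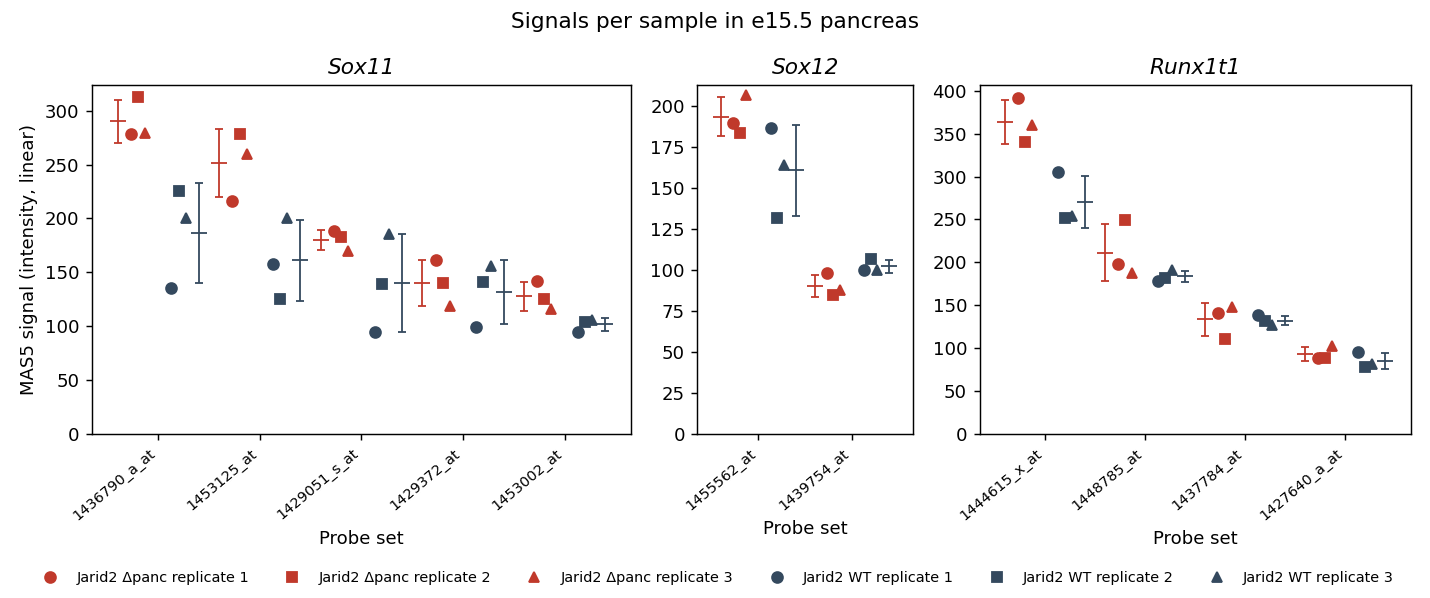
MAS5 signal (vertical axis, linear, starting at 0) of each probe set of Sox11, Sox12 and Runx1t1 with a mean signal of at least 64, with the 3 Jarid2 Δpanc samples in red to the left of the 3 Jarid2 WT samples in dark grey and bars for the mean and SD. For Sox11 1436790_a_at the Jarid2 Δpanc samples lie at 278 to 313 and the Jarid2 WT samples at 135 to 225, while for Runx1t1 1437784_at the groups lie over each other.

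Averaged on the log2 scale over its 5 probe sets with a mean of at least 64, Sox11 stood at 0.47, 0.49 and 0.35 in the Jarid2 Δpanc samples relative to the Jarid2 WT mean, and at -0.29, 0.03 and 0.25 in Jarid2 WT replicates 1, 2 and 3. The spread among the controls (SD 0.27, n = 3) was larger than that among the Jarid2 Δpanc samples (SD 0.08, n = 3). Leaving out Jarid2 WT replicate 1 gave a log2 fold change of 0.45 for 1436790_a_at, and leaving out Jarid2 WT replicate 2 gave 0.82. The mean over all 6 probe sets was 0.39 in place of 0.67. With Jarid2 WT replicate 3 as the sole control, 1436790_a_at had 0.53. That choice was made after seeing the data, because this sample alone among the controls lacks Y-linked transcripts. Against it, 1453125_at had 0.32, 1453002_at 0.26 and 1431225_at 0.04, while 1429051_s_at had -0.05 and 1429372_at -0.17. Without Jarid2 WT replicate 1, or without Jarid2 Δpanc replicate 1, 4 of the 6 probe sets had a positive value, and in both cases 3 separated the groups.

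Sox4, the SoxC factor of the pancreatic epithelium, had nearly the same signal in both genotypes on its brightest probe set. Probe set 1433575_at had 4149, 4569 and 4560 in Jarid2 Δpanc and 4368, 4371 and 4296 in Jarid2 WT pancreases, a log2 fold change of 0.03 (SE 0.04). The Jarid2 Δpanc samples lay on both sides of the controls. Its mean was 4426 ± 240 (SD, n = 3) in Jarid2 Δpanc and 4345 ± 42.5 (SD, n = 3) in Jarid2 WT. The value was 0.11 after quantile normalization and -0.02 after median scaling, so that it has no settled sign.

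The remaining probe sets of Sox4 had larger standard errors where they lay above the floor. Probe set 1419156_at had 321, 351 and 332 in Jarid2 Δpanc and 352, 263 and 328 in Jarid2 WT, with a log2 fold change of 0.10 (SE 0.12). Probe set 1419155_a_at had 268, 324 and 248 in Jarid2 Δpanc and 345, 178 and 250 in Jarid2 WT, with 0.16 (SE 0.28). Among these, Jarid2 WT replicate 1 was the highest of the 6 samples and Jarid2 WT replicate 2 the lowest on both. Probe set 1419157_at had 0.02 (SE 0.38), and 1449370_at and 1455867_at, with mean signals of 49 and 36.7, had -0.30 (SE 0.43) and 0.55 (SE 0.26). The last, with 41, 48 and 40 in Jarid2 Δpanc and 23, 26 and 42 in Jarid2 WT pancreases, overlapped through Jarid2 WT replicate 3. The final pair, 1443778_at and 1458332_x_at, lay under 16 on all 6 arrays and has no fold change. In 0 of 8 probe sets did the genotypes separate, and 4 of the 8 came from a single sequence record. Under other settings some did, in both directions. Probe set 1433575_at lay above every control after quantile normalization (0.11) and without Jarid2 Δpanc replicate 1 (0.07). Without Jarid2 WT replicate 3, 1455867_at lay above the controls left (0.81) and 1419157_at below them (-0.34). With that replicate as the sole control, 1419157_at lay above it (0.72). Without Jarid2 Δpanc replicate 2, 1449370_at lay below every control (-0.65).

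**Figure D2:**
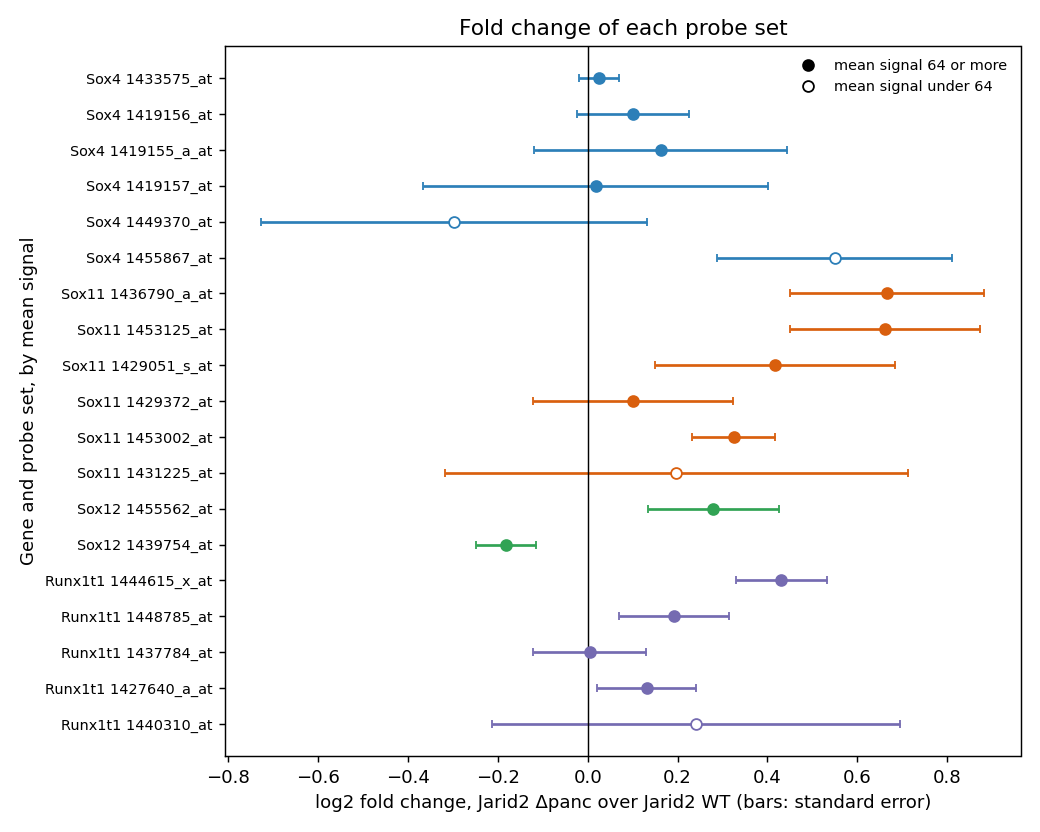
Log2 fold change of Jarid2 Δpanc over Jarid2 WT pancreases (horizontal axis) for the 19 probe sets that lay above the floor of 16 on at least 2 arrays, grouped by gene and ordered by mean signal, with bars for the SE from limma and open circles for means under 64. All 6 Sox11 values lie right of 0, whereas the brightest Sox4 value is 0.03.

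Sox12, a weaker activator than the other SoxC factors, was measured by 2 probe sets with a mean of at least 64, and these ran in opposite directions. Probe set 1455562_at had 190, 184 and 207 in Jarid2 Δpanc and 187, 132 and 164 in Jarid2 WT pancreases, with a log2 fold change of 0.28 (SE 0.15). The groups overlapped through Jarid2 WT replicate 1, and leaving out Jarid2 WT replicate 2, the lowest sample, gave 0.14. Probe set 1439754_at had 98, 85 and 88 in Jarid2 Δpanc and 100, 107 and 100 in Jarid2 WT, with -0.18 (SE 0.07). There every Jarid2 Δpanc sample lay below every control, but the closest were 98 and 100. That was the only 1 of the 23 probe sets with all Jarid2 Δpanc samples below, against 4.1% of all probe sets and 7.61% of those with a mean of at least 64. The third, 1456882_at, was under 16 on 5 arrays. Averaged over the first 2 probe sets, Sox12 stood at 0.10, -0.03 and 0.08 in Jarid2 Δpanc samples and at 0.10, -0.10 and 0.00 in Jarid2 WT samples relative to the Jarid2 WT mean.

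For Runx1t1, the log2 fold change depended on the probe set. The brightest, 1444615_x_at, had signals of 391, 340 and 360 in Jarid2 Δpanc and 305, 252 and 254 in Jarid2 WT pancreases, a log2 fold change of 0.43 (SE 0.10). All Jarid2 Δpanc samples lay above all controls, and the value was 0.38 to 0.52 with any sample left out. In the naming of the manufacturer, the suffix x marks sets with some probes that match other sequences, and the annotation ties this one to no sequence record. Probe set 1448785_at had 198, 249 and 187 in Jarid2 Δpanc and 178, 182 and 191 in Jarid2 WT, with 0.19 (SE 0.12), and overlapped between genotypes. Probe set 1437784_at had 141, 111 and 148 in Jarid2 Δpanc and 138, 131 and 127 in Jarid2 WT, with 0.00 (SE 0.13). Probe set 1427640_a_at had 0.13 (SE 0.11), with 88 to 103 in Jarid2 Δpanc and 78 to 96 in Jarid2 WT.

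The other 2 probe sets of Runx1t1 were dim: 1440310_at had 44 to 48 in Jarid2 Δpanc and 21 to 65 in Jarid2 WT, and 1443788_at was under 16 on all arrays. The mean over all 6 probe sets of Runx1t1 on the log2 scale gave 0.17 in place of 0.43. Over the 4 probe sets with a mean of at least 64, the Jarid2 Δpanc samples stood at 0.20, 0.14 and 0.22 and the Jarid2 WT samples at 0.09, -0.06 and -0.03 relative to the Jarid2 WT mean. Over all 4 genes, 4 of 23 probe sets had every Jarid2 Δpanc sample above every control, 3 of Sox11 and 1 of Runx1t1, and 18 overlapped. The share above was 5.58% over all probe sets and 8.66% over those with a mean of at least 64. The genes were chosen with this contrast known, so nothing is read from the count.

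**Figure D3:**
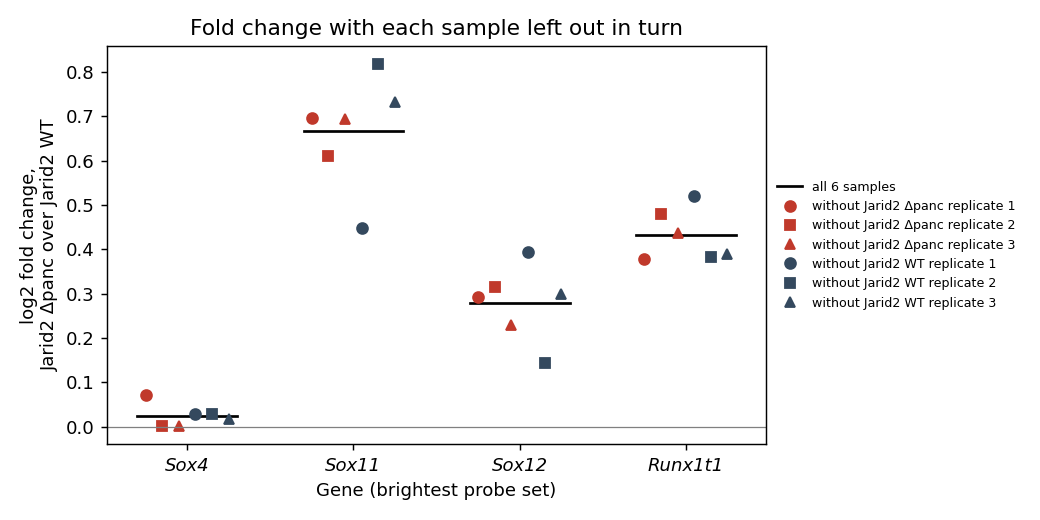
Log2 fold change of Jarid2 Δpanc over Jarid2 WT pancreases (vertical axis) for the brightest probe set of each gene with all 6 samples (line) and with each sample left out in turn (points, red where a Jarid2 Δpanc sample and dark grey where a Jarid2 WT sample was left out). Sox11 ranges from 0.45 to 0.82 and Runx1t1 from 0.38 to 0.52, while Sox4 stays between 0.00 and 0.07.

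Whole organs were hybridized, so that more cells of a type and more RNA per cell cannot be told apart, and the levels of cell type markers stand beside the values of Sox11. The 8 measured neuron markers, 3 of them with a mean of at least 64 and none under 16 on all arrays, summed to 552 to 764 in Jarid2 Δpanc and to 442, 575 and 723 in Jarid2 WT replicates 1, 2 and 3. Among the controls replicate 1 was lowest and replicate 3 highest, as for the average of Sox11 over 5 probe sets, but not for its probe sets 1436790_a_at, highest in replicate 2, and 1453125_at, lowest in replicate 2. The 9 mesenchyme markers, led by the collagen genes, summed to 25186 to 29925 in Jarid2 Δpanc and to 23012, 24461 and 28526 in Jarid2 WT, in the same order of controls, and the 6 Schwann cell markers to 890 to 1023 in Jarid2 Δpanc and to 906, 945 and 1041 in Jarid2 WT. Jarid2 WT replicate 3 had the highest sums of the controls in these 3 lists. It lay within the Jarid2 Δpanc range on the 3 probe sets of Sox11 that overlapped. On the 3 that separated it lay below that range, as every control must where groups separate, so nothing is read from that. The median log2 fold change was 0.28 for the neuron, 0.10 for the mesenchyme and 0.12 for the Schwann cell markers. Over 18194 genes it was 0.00, with 8674 positive, 7870 negative and 1427 fixed at 0 because all arrays lay under 16. Only 3 of the 6 Schwann cell markers had a mean of at least 64, and these were named after their values were seen. Fabp7 had 0.19 (SE 0.24), Erbb3 had -0.03 (SE 0.09) and S100b, below every control, had -0.49 (SE 0.13). The part of these cells in the Sox11 values was not tested.

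Of the epithelial lists, the endocrine and acinar sums were lower in every Jarid2 Δpanc sample than in any control, and no gene of either passed an adjusted p of 0.05 with limma. The 13 endocrine lineage markers, led by hormone genes, summed to 12646 to 14796 in Jarid2 Δpanc and to 20792 to 23991 in Jarid2 WT pancreases. Of them, 6 genes lay below every control, against 5.66% of all genes, and the median log2 fold change was -0.24. The 10 acinar markers summed to 54276 to 65524 in Jarid2 Δpanc and to 68666 to 80140 in Jarid2 WT, with 5 below every control and a median of -0.38. The 6 measured duct and trunk markers had a median of 0.00, with Krt7 above every control (0.23, SE 0.07) and Prom1 below every control (-0.22, SE 0.09), both named after their values were seen. Endothelial markers summed to 1140 to 1293 in Jarid2 Δpanc and to 1112 to 1213 in Jarid2 WT. Leukocyte markers summed to 1425 to 2744 in Jarid2 Δpanc and to 1057 to 1694 in Jarid2 WT. The cell type marker lists share Neurog3, Sox9 and Sox10 with lists given below.

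**Figure D4:**
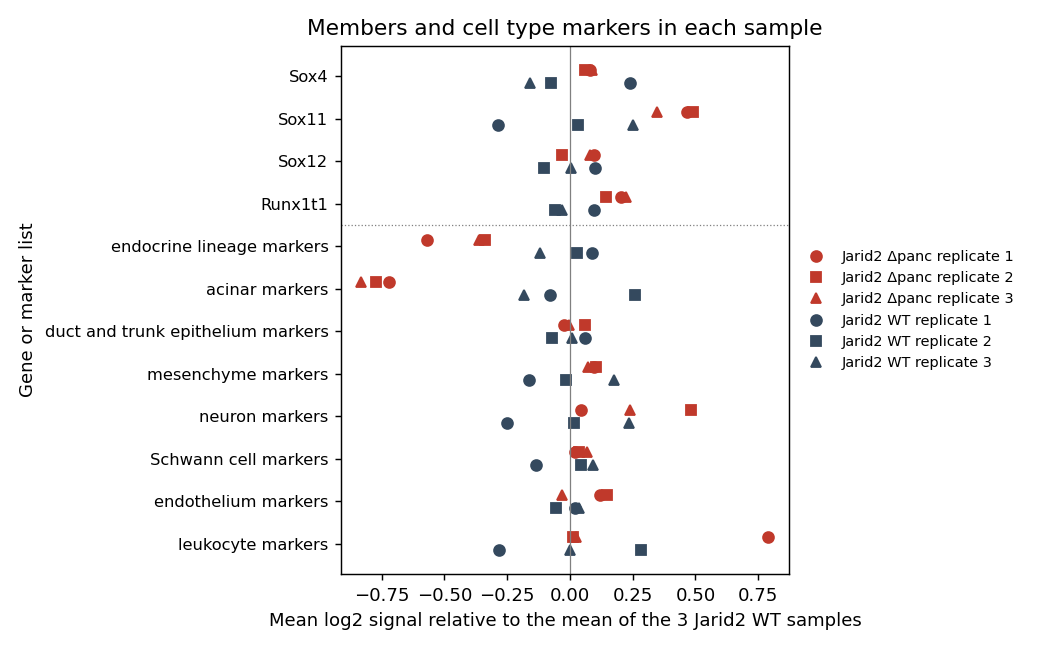
Mean log2 signal per sample (horizontal axis, centred on the Jarid2 WT average) for each of the 4 genes, over probe sets with a mean of at least 64, and for 8 cell type marker lists, with Jarid2 Δpanc samples in red above Jarid2 WT samples in dark grey. Sox11 lies at 0.35 to 0.49 in Jarid2 Δpanc and at -0.29 to 0.25 in Jarid2 WT samples, and acinar markers at -0.83 to -0.72 and at -0.18 to 0.26. The skeletal muscle list, which was high in Jarid2 WT replicate 3, is left off the plot.

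Other Sox genes, each at its brightest probe set, passed no test of a difference between genotypes. Of 16 measured, 0 passed an adjusted p of 0.05 over all probe sets with limma, 0 had an unadjusted p under 0.05 (8.57% of 18194 genes), and in 0 did the groups separate, against 11.4% of genes. With only 16 genes, 2 of them under 16 on all arrays, counts of 0 are not far from these shares. Nothing is read from the counts. The median log2 fold change of the 16 genes was 0.08. Sox6, with 258, 237 and 247 in Jarid2 Δpanc and 272, 222 and 244 in Jarid2 WT pancreases, had 0.01 (SE 0.09, limma adjusted p = 1). Sox9, the factor of pancreatic progenitors and ducts, had 268, 320 and 262 in Jarid2 Δpanc and 275, 233 and 234 in Jarid2 WT, with 0.19 (SE 0.11, limma adjusted p = 0.839). Only 6 of the 16 had a mean signal of at least 64, and the endoderm factor gene Sox17 and the vessel factor gene Sox18, named after their values were seen, were among them with 0.28 (SE 0.16) and -0.04 (SE 0.08).

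Genes known as partners or targets of SoxC factors in other tissues or in the pancreas did not separate either. Of 12, 8 had a mean signal of at least 64, and 0 passed an adjusted p of 0.05 with limma. An unadjusted limma p under 0.05 was found for 0, against 8.57% of 18194 genes. All above or all below the controls lay 0, against 11.4% of genes. With only 12 genes, counts of 0 are not far from these shares, so nothing is read from them. Their median log2 fold change was -0.003. The brightest were Ctnnb1, which encodes the Wnt effector β-catenin, with -0.01 (SE 0.06), and Sdcbp, which encodes syntenin, with 0.04 (SE 0.04). Neurog3, named after its values were seen, had 1116, 1456 and 1330 in Jarid2 Δpanc and 1575, 1469 and 1415 in Jarid2 WT pancreases, with -0.20 (SE 0.11, limma adjusted p = 0.839). Of the neuronal microtubule genes Tubb3 and Dcx, both dim, Tubb3 had -0.22 (SE 0.37), and Dcx, with 73, 58 and 55 in Jarid2 Δpanc and 26, 45 and 67 in Jarid2 WT, overlapped between genotypes (log2 fold change 0.52, SE 0.39, limma adjusted p = 0.839). Both were named after their values were seen.

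Of the paralogs and partners of Runx1t1, 16 were measured, and none passed an adjusted p of 0.05 with limma, where the lowest was 0.516, while 4 of 16 had an unadjusted p under 0.05, against 8.57% of 18194 genes. In 6 the groups separated, 4 above (5.71% of genes) and 2 below (5.66% of genes). The paralog Cbfa2t2 had 371, 405 and 335 in Jarid2 Δpanc and 317, 266 and 317 in Jarid2 WT pancreases, with a log2 fold change of 0.30 (SE 0.11, limma adjusted p = 0.648). The other paralog, Cbfa2t3, had 176, 182 and 162 in Jarid2 Δpanc and 260, 162 and 198 in Jarid2 WT, with -0.23 (SE 0.19). Cbfa2t2 therefore had the sign of the brightest Runx1t1 probe set and Cbfa2t3 the opposite sign, though Cbfa2t3 overlapped between groups.

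Of the DNA-binding Runx proteins and their subunit, Runx1 and Runx3 were dim, at mean signals of 37.3 and 19.5. Runx1 had -0.52 (SE 0.35) and Runx3 had -0.58 (SE 0.38). Cbfb, their common β subunit, had 1389, 1394 and 1362 in Jarid2 Δpanc and 1286, 1348 and 1265 in Jarid2 WT, a small difference of 0.09 (SE 0.03, limma adjusted p = 0.593) without overlap. Among co-repressors, Sin3a had 341, 322 and 329 in Jarid2 Δpanc and 321, 243 and 288 in Jarid2 WT, with 0.23 (SE 0.11), and the deacetylase gene Hdac2 had 0.10 (SE 0.05). Of the E proteins, Tcf4 had 0.10 (SE 0.04) without overlap and Tcf12 had 0.06 (SE 0.03). The zinc finger repressor gene Gfi1, known from blood cells, ran the other way with 151, 166 and 141 in Jarid2 Δpanc and 223, 226 and 177 in Jarid2 WT, a log2 fold change of -0.45 (SE 0.13, limma adjusted p = 0.516). Gfi1b, dim and named after its values were seen, was the second gene below every control, with -0.57 (SE 0.23). After median scaling of the arrays, 1 in place of 4 of these genes lay above every control.

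The genes whose pattern over the 6 samples was most like that of a member were found by the root mean square distance between centred log2 signals, over 9956 genes with a mean signal of at least 64. For Sox11 they were Tle4, a Groucho family co-repressor gene, the matrix protein gene Emilin3 and the helicase-like gene Ttf2, at distances of 0.08, 0.08 and 0.10 log2 units against a median of 0.43. Tle4 had 161, 170 and 161 in Jarid2 Δpanc and 79, 128 and 100 in Jarid2 WT pancreases. For Runx1t1 they were Rcor3, a CoREST family gene, the guanylate cyclase gene Gucy1b1 and Unkl, at 0.07, 0.07 and 0.08 against a median of 0.28. Rcor3 had 279, 250 and 230 in Jarid2 Δpanc and 208, 170 and 168 in Jarid2 WT pancreases. For Sox12 they were Thumpd2, Zfp958 and the AMP kinase gene Prkaa1, at 0.01, 0.05 and 0.06 against 0.25. For Sox4 they were the replication gene Mcm4, the aminotransferase gene Got2 and Bscl2, all at 0.02 against 0.14. These distances are a description over 6 arrays.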

How the data were processed

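Whole e15.5 pancreases of 3 Jarid2 Δpanc and 3 Jarid2 WT embryos were hybridized to Affymetrix Mouse Genome 430 arrays with 50 ng of RNA amplified in 2 cycles. The deposited values are intensities from MAS5, whose version the submitters' notes do not give. They are whole numbers whose mean, leaving out the top and bottom 2%, is 150. The paper names RMA and LIMMA for its own analysis, and RMA was not rerun here. Values under 16, which were 26.5% to 29% of probe sets per array, were set to 16 and log2 was taken. A limma model (version 3.58.1, R 4.3.3; lmFit, then eBayes, with 4 residual and 0.501 prior degrees of freedom) was fitted to all 45101 probe sets, with Benjamini-Hochberg adjustment, and p-values measure the spread between these samples only. Gene names came from the platform annotation: 34958 probe sets had 1 symbol, 932 several and 9211 none, and the brightest probe set stood for each of 18194 genes. The members and the 3 pathway and 9 marker lists were chosen with earlier results of these data known. Beyond the 4 genes, named genes were the 6 Runx1t1 family genes, up to 6 separating genes and the 2 brightest of each pathway list, and the 3 nearest genes per member, besides Jarid2 and markers of single samples. Sox17, Sox18, Neurog3, Tubb3, Dcx, Gfi1b, Krt7, Prom1, Fabp7, Erbb3 and S100b were added after their values were seen. The number of arrays limits the precision. No 2 arrays shared over 1.22% of values at 17341 probe sets.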

Additional observations from a re-analysis of the deposited data

How the results depend on the processing

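Of the brightest probe sets, Sox4 had a log2 fold change of 0.11 instead of 0.03 with quantile normalization, and with the mean over all probe sets of the gene Sox11 had 0.39 instead of 0.67, Sox12 0.014 instead of 0.28 and Runx1t1 0.17 instead of 0.43. With a sample left out, the values ranged from 0.0016 to 0.071 for Sox4, 0.45 to 0.82 for Sox11, 0.14 to 0.39 for Sox12 and 0.38 to 0.52 for Runx1t1. The counts of 1 probe set called lower and 1 called higher over the array became 0 and 0 with floors of 1 and 64, with probe sets of a mean of at least 64, with the brightest probe set per gene, and with the mean per gene. They became 3 and 4 with quantile normalization, and 2 lower with median scaling. With a sample left out they ranged from 1 to 25 lower, most without Jarid2 WT replicate 3, and from 4 to 23 higher, most without Jarid2 Δpanc replicate 2. With a sample left out, separating genes ranged from 0 to 2 for other Sox genes, 6 to 11 for the Runx1t1 partners and 0 to 4 for the SoxC partners. The highest of the last 2 came without Jarid2 WT replicate 2. Groups separate more easily with fewer samples, and the matching share over all genes is not given here, so nothing is read from these ranges. The count of Runx1t1 partners was 3 instead of 6 with median scaling, and that of SoxC partners 1 with quantile normalization, 2 with median scaling and 1 with the mean per gene, instead of 0. The cause was not tested. With the replicate number as a block, 0 probe sets were called lower and 0 higher. The labels tie same-numbered samples by their number only. Their deviations correlated at -0.035 to -0.024, and no sample correlated best with its own number. With 3 samples per group, these correlations cannot tell whether samples shared a litter or a batch. The fold changes of the members are the same with the block (0.03, 0.67, 0.28 and 0.43). Values near 16 limit what can be read: 3 of the 23 probe sets were under it on all arrays.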
